A study of Mus musculus with 8 samples.

Results

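The transcripts of the core and accessory subunits of Polycomb Repressive Complex 2 (PRC2) were examined in wild-type mouse embryos whose fathers did or did not carry a hypomorphic *Eed* allele. The set held 10 genes chosen by name and not by a cut on any measured value, though earlier results of these data were known. The genes were the 6 core subunits *Eed*, *Ezh1*, *Ezh2*, *Suz12*, *Rbbp4* and *Rbbp7*, and the 4 accessory subunits *Jarid2*, *Aebp2*, *Mtf2* and *Phf19*. They are 10 of 20667 named genes on the array and are covered by 16 of its 55681 probes. Of these 16 probes 15 were bright enough to be tested, so that every one of the 10 genes had at least 1 tested probe.

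The study asked whether loss of PRC2 function in the paternal germline alters offspring, and these arrays covered the offspring that were themselves wild type. All 8 embryos were *Eed* wt/wt, were carried by wild-type mothers, were matched for stage and were collected at E8.5. The only mouse strain on the labels is Eedl7Rn5-1989SB C57bl6/129, while a legend of the study names the mothers as C57bl/6J. In the first group 4 embryos were sired by *Eed* wt/wt males (the WT father group), and in the second 4 embryos were sired by *Eed* hypo/wt males (the HET father group) of the Eedl7Rn5-1989SB line, whose ENU-induced allele weakens EED function. This line also carried an Oct4GFP transgene. Females and males were balanced, with 2 of each in a group. No embryo carried the mutant allele according to the labels, and no treatment was given.

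PRC2 places methyl groups on a lysine of the tail of histone H3, H3K27, and the trimethylated form, H3K27me3, marks repressed genes. EZH2 and its homologue EZH1 are the alternative catalytic subunits, SUZ12 is the scaffold, and EED binds H3K27me3 and stimulates the enzyme. RBBP4 and RBBP7 are closely related histone-binding proteins that also belong to other chromatin complexes. JARID2 and AEBP2 define one form of the complex, while MTF2 and PHF19 are alternative Polycomb-like proteins of another, and both pairs help the complex to reach its targets. Mouse embryos that lack *Eed*, *Ezh2* or *Suz12* die around gastrulation.

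RNA of each embryo was labelled with Cy3 and hybridised to its own one-colour Agilent 8x60K array. A value below is the log2 spot intensity of a probe less the 75th percentile of that array, so that 0 is the 75th percentile and a difference of 1 is 2-fold. Between 29203 and 39530 probes were well above background on an array. Replicate 1 of the WT father group (39530 probes) and replicate 3 of the HET father group (38878) stood above the other 6 embryos. Some results for the brightest probe of a gene are also given without them. The differences at the dimmer probes of *Aebp2*, *Ezh1* and *Rbbp7* are not. Each slide carried the embryos of a single father group, so an effect of the slide and of the father cannot be told apart, and 3 of the 4 embryos of WT fathers share the first part of their code, which the labels do not explain. P-values therefore measure the spread between these embryos, some of which may share a litter or a father. The study's breeding plan lists 2 wt/wt and 3 hypo/wt males, and at that count some embryos of each group share a father. Another legend of the study puts n = 4 beside each genotype of male. The sexes on the labels were borne out, with *Xist* above background in 4 of 4 females and 0 of 4 males and *Ddx3y* in 4 of 4 males and 0 of 4 females. Of 9 markers of the embryo proper all were above background on all 8 arrays, with a mean level of 0.88 to 1.16 in the WT father group and 0.96 to 1.04 in the HET father group. Markers of primitive erythroid cells (5 of 5) and of visceral yolk sac endoderm (7 of 7) were also above background on every array. Of 6 measured decidua and trophoblast markers 3 were, and *Tpbpa* and *Cts8* were on none. The mean level of these 6 was -3.53 to -3.14 with WT fathers and -4.38 to -3.47 with HET fathers, and among them *Prl8a2*, a decidual prolactin, had a mean log2 signal of -0.26 with HET fathers against 2.20 with WT fathers (limma, unadjusted p = 0.0126 and adjusted p = 1.00). The part of such tissue in the PRC2 values was not tested. The germ line marker *Ddx4* was above background on all 8 arrays and *Dazl* on none, and the blood cell marker *Ptprc* on 2.

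Father's genotype was compared first, to ask whether wild-type offspring of *Eed* hypo/wt males carry a different level of any PRC2 transcript. No difference passed the test for any of the 10 genes. By limma, 0 of the 15 probes passed an adjusted p of 0.01 with at least a 2-fold change, as for 0 of all 33093 tested probes (0%). Each of the 15 had an adjusted p of 1.00. At an unadjusted p under 0.05 there was 1 probe, a second and dimmer probe of *Rbbp4*, beside 4.35% of all tested probes, or 2.35% that were lower with HET fathers. The 2 groups overlapped at every one of the 15 probes, whereas 3.15% of all tested probes had groups that did not overlap. At the brightest probe of each gene 7 genes were higher and 3 were lower in the HET father group, with a median log2 difference of 0.02 against -0.00 over all tested probes. These differences ran from -0.20 (*Jarid2*) to 0.13 (*Rbbp7*). In a whole embryo, fewer cells that express a gene and less RNA per cell cannot be told apart.

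**Figure D1:**
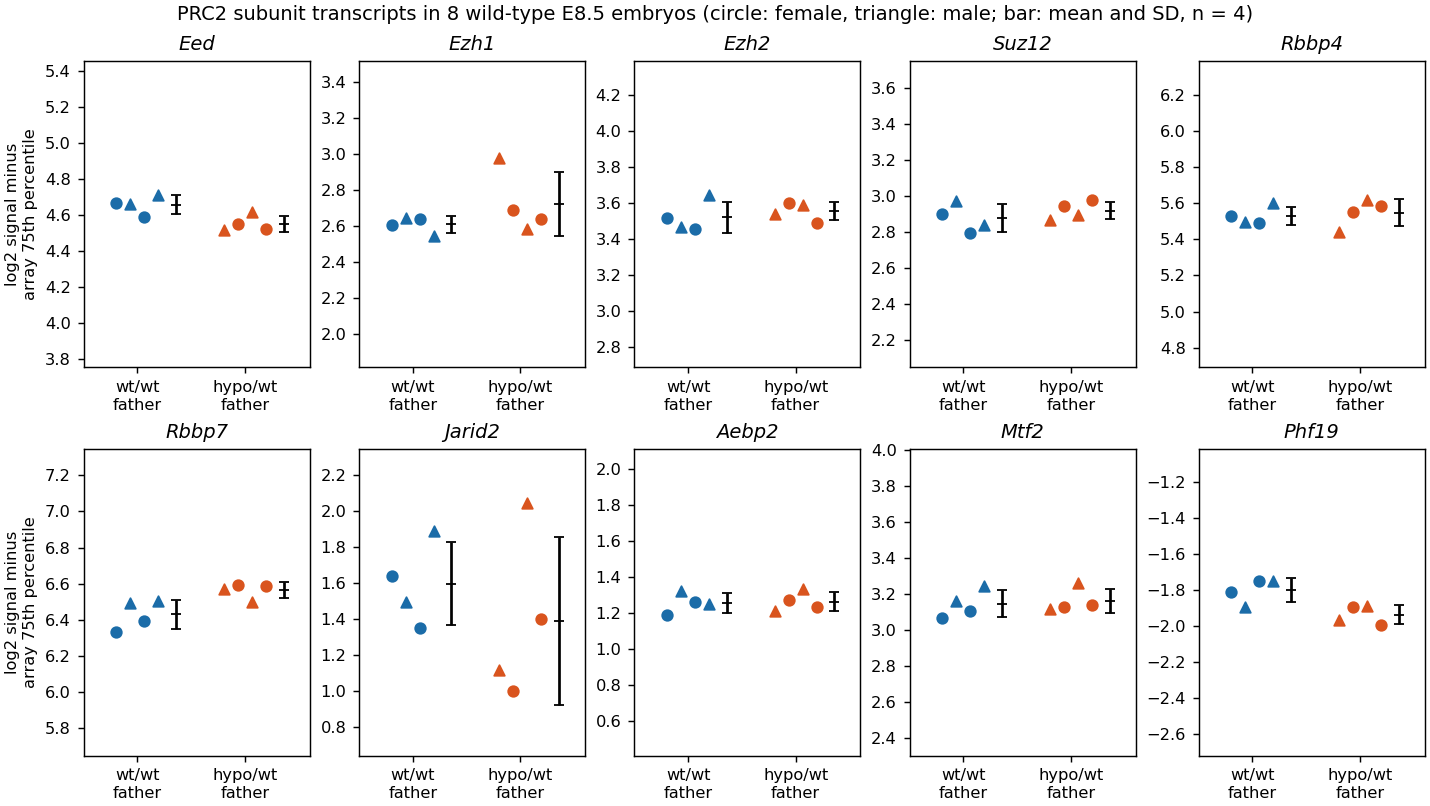
Log2 signal less the 75th percentile of the array (vertical axes, each spanning the same number of log2 units) for the brightest probe of the 10 PRC2 genes, in 4 wild-type E8.5 embryos of *Eed* wt/wt fathers (blue) and 4 of *Eed* hypo/wt fathers (orange), with females as circles, males as triangles and the mean and SD as bars. The groups overlap in all 10 panels, and the points spread most for *Jarid2*, from 1.00 to 2.04.

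*Eed* itself, the gene mutated in the HET fathers, had log2 signals of 4.67, 4.66, 4.59 and 4.71 in replicates 1 to 4 of the WT father group. In replicates 1 to 4 of the HET father group they were 4.52, 4.55, 4.61 and 4.52. Replicate 3 of HET fathers lay above replicate 3 of WT fathers, so the groups overlapped, and the other 3 embryos of HET fathers lay below all 4 embryos of WT fathers. The means were 4.66 ± 0.05 and 4.55 ± 0.05 (SD, n = 4 each). This is a log2 difference of -0.11 (95% interval -0.25 to 0.04; limma, unadjusted p = 0.125 and adjusted p = 1.00), or a ratio of 0.929 (0.842 to 1.03). The *Eed* difference stayed negative in females (-0.09) and in males (-0.12), and lay between -0.13 and -0.09 with each embryo left out in turn. With a normexp background correction and quantile normalization it was -0.20 with an unadjusted p of 0.0101 and an adjusted p of 0.570 from limma.

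*Ezh2*, which encodes the main catalytic subunit of proliferating cells, had log2 signals of 3.52, 3.46, 3.45 and 3.64 in the WT father group and 3.54, 3.60, 3.59 and 3.49 in the HET father group. All 4 embryos of HET fathers lay inside the range of the other group. The log2 difference of *Ezh2* was 0.03 (-0.13 to 0.20). *Suz12*, the scaffold gene, read 2.90, 2.97, 2.79 and 2.84 with WT fathers and 2.86, 2.94, 2.89 and 2.98 with HET fathers. Its groups lay over each other, with a log2 difference of 0.04 (-0.12 to 0.20).

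*Ezh1*, the homologue that is more prominent in cells that have stopped dividing, was read by 3 probes. The brightest gave 2.61, 2.65, 2.64 and 2.55 in embryos of WT fathers and 2.98, 2.69, 2.58 and 2.64 in those of HET fathers. One male, replicate 1 of HET fathers, was higher than the other 7 embryos, and a second probe was also highest in that embryo (0.92, against 0.46 to 0.74 in the others). The log2 difference of the brightest *Ezh1* probe was 0.11 (-0.12 to 0.34; limma, unadjusted p = 0.285), and without that embryo it was 0.03. The second probe gave 0.17 (-0.05 to 0.39). The third probe was well above background on 6 of 8 arrays and gave 0.10 with an interval of -0.81 to 1.02, too wide to place the gene.

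The core genes also differ in the sequence at their starts, and the last 100 bases before the start are shown for 4 of them, the gene mutated in the fathers, the catalytic and scaffold genes and the X-linked member. The sequences are RefSeq's on GRCm38.p6, read 5′ to 3′ on the strand of the gene, and capitals mark a CCAAT box (CCAAT or its complement ATTGG), a common promoter element bound by NF-Y.
Eed, chr7:89980977-89981076, minus strand: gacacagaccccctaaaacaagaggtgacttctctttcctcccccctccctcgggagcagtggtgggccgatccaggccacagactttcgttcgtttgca
Ezh2, chr6:47595031-47595130, minus strand: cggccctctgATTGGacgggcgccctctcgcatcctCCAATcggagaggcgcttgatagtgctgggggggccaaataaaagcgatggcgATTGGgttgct
Suz12, chr11:79993006-79993105, plus strand: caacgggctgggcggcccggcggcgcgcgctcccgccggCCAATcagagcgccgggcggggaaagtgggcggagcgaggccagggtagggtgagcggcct
Rbbp7, chrX:162760272-162760371, plus strand: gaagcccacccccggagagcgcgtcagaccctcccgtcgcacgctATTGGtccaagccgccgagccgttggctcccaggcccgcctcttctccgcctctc

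These 100 bases hold 3 CCAAT boxes for *Ezh2*, 1 each for *Suz12* and *Rbbp7*, and 0 for *Eed*. All 10 genes had a promoter window in RefSeq's table, 14 windows in all, each running from 250 bases before to 50 after a start. A CCAAT box on either strand was present in 9 of the 14 (64.3%), against 37.4% of 32851 windows of all genes. These 9 include the window of *Eed*, with 1 box past the start, and that of *Rbbp7*, with 2 boxes. The GC box GGGCGG was also in 9 (64.3%, against 35.7%). E2F-type motifs were rarer: TTTGGCGC was in 1 window (*Ezh2*; 0.514% of all windows) and TTTCCCGC in 2 (*Phf19* and *Suz12*; 1.07%). The ETS-type CCGGAAGT (3.89% of all windows) was in 0 of the 14. Both strands were searched for each motif, and a GC box can share bases with TTTCCCGC. The median GC content of the 14 windows was 63.5%, against 52.7% over all windows, and the median ratio of observed to expected CpG was 0.856 against 0.384. Several windows belong to the same gene, so the 14 are not independent, and a match describes letters and no binding.

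*Rbbp4* gave the only PRC2 reading with an unadjusted p under 0.05, and its 2 probes did not read alike. Its bright probe gave 5.53, 5.50, 5.49 and 5.60 in the WT father group and 5.44, 5.55, 5.62 and 5.58 in the HET father group. The embryos of the 2 groups were intermixed, and the log2 difference was 0.02 (-0.14 to 0.18). At the second probe, which targets the same RefSeq transcript, the values were -0.76, -0.60, -0.48 and -0.50 with WT fathers and -1.17, -1.01, -1.45 and -0.62 with HET fathers. Here 3 of the 4 embryos of HET fathers lay below all embryos of WT fathers, and replicate 4 lay among them. The means were -0.58 ± 0.13 and -1.06 ± 0.34 (SD, n = 4 each), a ratio of 0.717 with an interval of 0.542 to 0.949.

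The log2 difference of the second *Rbbp4* probe was -0.48 (-0.88 to -0.08; limma, unadjusted p = 0.0259 and adjusted p = 1.00). It was -0.20 between females and -0.76 between males, 2 embryos against 2 in each, and the interaction of father and sex had an unadjusted p of 0.0944. Leaving out single embryos moved it between -0.63 (without replicate 4 of HET fathers, unadjusted p = 0.00244 and adjusted p = 0.584 from limma) and -0.35 (without replicate 3 of HET fathers, unadjusted p = 0.0499). The unadjusted p rose above 0.05 without replicate 3 or 4 of WT fathers or replicate 1 of HET fathers, to at most 0.0633. It was also above 0.05 with embryos of a shared code as a random block (difference -0.44, unadjusted p = 0.0610; estimated correlation within a code 0.539) and with a shift by the median of each array (-0.58, unadjusted p = 0.184), and then 0 of the 15 probes were under 0.05. Averaging both probes gave -0.23 for the gene. The probe sequences were not used here, so it was not tested which *Rbbp4* transcripts or related sequences each probe binds.

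*Rbbp7*, the X-linked partner of *Rbbp4*, had bright-probe signals of 6.33, 6.49, 6.39 and 6.50 in embryos of WT fathers and 6.57, 6.59, 6.50 and 6.59 in those of HET fathers. Replicates 1, 2 and 4 of HET fathers were above every embryo of WT fathers, and replicate 3 was level with the top of that group. The means were 6.43 ± 0.08 and 6.56 ± 0.04 (SD, n = 4 each). The log2 difference was 0.13 (-0.02 to 0.29; limma, unadjusted p = 0.0863), and it was 0.23 in females and 0.04 in males. A second *Rbbp7* probe gave 0.06 with a wider interval (-0.41 to 0.52).

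**Figure D2:**
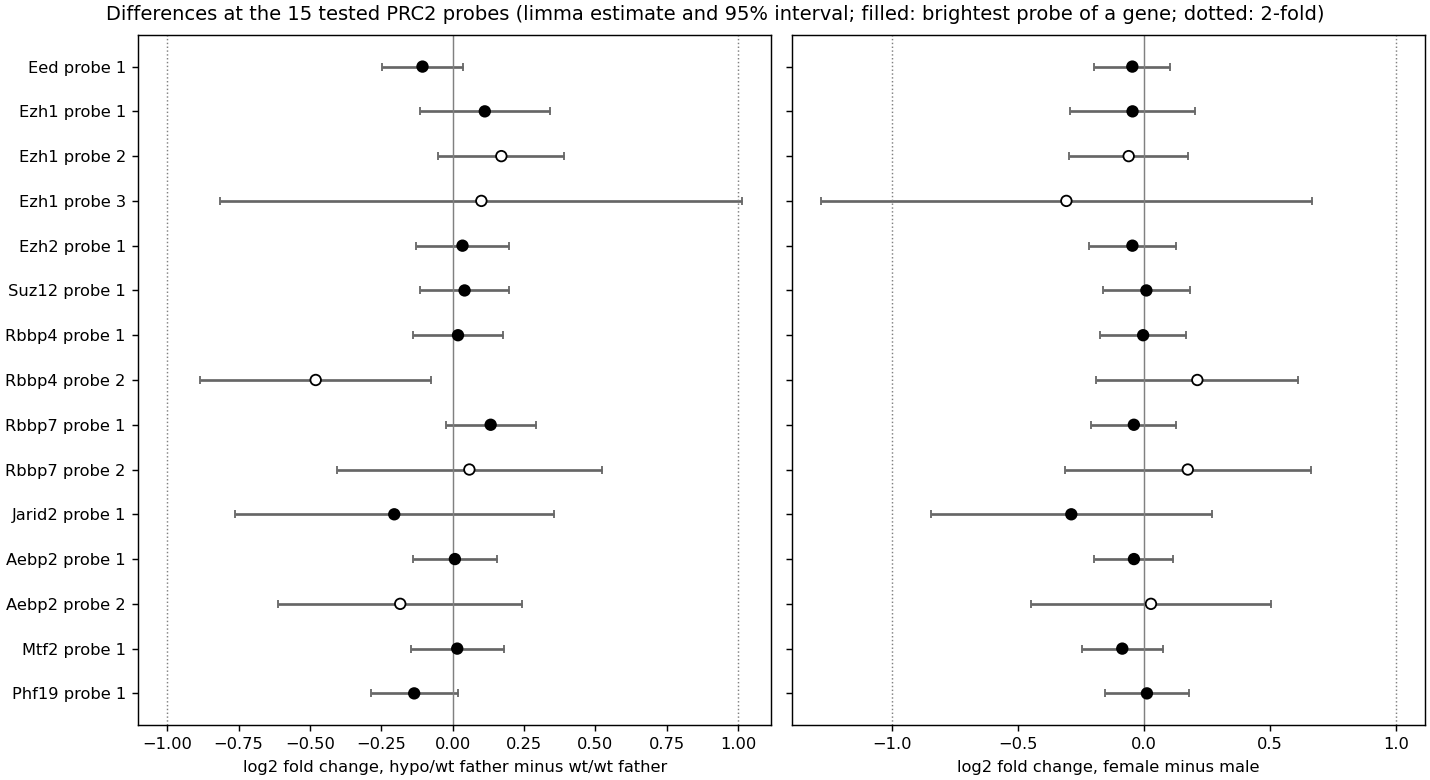
Log2 fold change (horizontal axes) at the 15 tested PRC2 probes, with the limma estimate as a point and its 95% interval as a bar, for embryos of *Eed* hypo/wt less *Eed* wt/wt fathers (left) and for females less males (right). Filled points are the brightest probe of a gene and dotted lines mark 2-fold. Every interval includes 0 except that of the second *Rbbp4* probe on the left, which runs from -0.88 to -0.08.

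Among the accessory subunits *Jarid2* varied most. JARID2 is a DNA-binding relative of the JmjC demethylases with no known demethylase activity. Its log2 signals were 1.64, 1.50, 1.35 and 1.89 in the WT father group and 1.12, 1.00, 2.04 and 1.40 in the HET father group. The highest and the lowest of all 8 embryos were both in the HET father group. The log2 difference was -0.20 (-0.76 to 0.35; limma, unadjusted p = 0.418). Its size depended on single embryos: leaving out 1 at a time gave values from -0.42 (without replicate 3 of HET fathers; unadjusted p = 0.0332 and adjusted p = 0.529 from limma) to -0.08 (without replicate 2 of HET fathers), with -0.11 without replicate 4 of WT fathers or replicate 1 of HET fathers. Without replicate 3 of HET fathers and replicate 1 of WT fathers it was -0.41.

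*Aebp2*, the zinc finger subunit found with JARID2, was read by 2 probes for different RefSeq transcripts. Its bright probe gave 1.19, 1.32, 1.26 and 1.25 with WT fathers and 1.21, 1.27, 1.33 and 1.23 with HET fathers. No embryo stood apart, and the log2 difference was 0.01 (-0.14 to 0.15). The dimmer probe ran from -0.38 to 0.43 over the 8 embryos and gave -0.18 (-0.61 to 0.24).

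Of the Polycomb-like subunits, *Mtf2* had 3.07, 3.16, 3.11 and 3.25 in embryos of WT fathers and 3.12, 3.13, 3.26 and 3.14 in those of HET fathers, a log2 difference of 0.02 (-0.15 to 0.18). A second *Mtf2* probe, for another transcript, was well above background in 1 embryo only and was not tested. *Phf19* was -1.81, -1.89, -1.75 and -1.75 in the WT father group and -1.97, -1.89, -1.89 and -2.0 in the HET father group. The 2 groups met at -1.89, with the other embryos of HET fathers at or below it and those of WT fathers above it. The log2 difference of *Phf19* was -0.13 (-0.29 to 0.02; limma, unadjusted p = 0.0759). Without moderation of the variances *Phf19* (unadjusted p = 0.0200), *Eed* (0.0217), *Rbbp7* (0.0287) and the second *Rbbp4* probe (0.0400) were the 4 probes under 0.05, and their adjusted p-values from limma were between 0.897 and 0.935.

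The intervals give how large a difference the spread between these 8 embryos allows, taking the embryos as independent. They do not include an effect of the slide or of a shared litter or father. At the brightest probe of each gene other than *Jarid2* the 95% interval lay within -0.29 and 0.34 on the log2 scale. For *Jarid2* it reached a ratio of 0.589. No interval of a brightest probe reached 2-fold in either direction. Some dimmer probes had wider intervals, with a ratio of 0.569 to 2.02 at the third *Ezh1* probe.

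Spread over the 8 embryos was small at the brightest probe of most PRC2 genes. At the brightest probe the SD of *Aebp2* was 0.05, at the 1.32 percentile of all tested probes, followed by *Rbbp4* (0.06, percentile 3.10), *Suz12* (0.06, 3.91), *Mtf2* (0.07, 4.48), *Ezh2* (0.07, 4.78) and *Eed* (0.07, 5.85). *Phf19* (percentile 12.1) and *Rbbp7* (12.9) came next and *Ezh1* (27.9) after them. *Jarid2*, with an SD of 0.36 at percentile 70.7, was the only gene whose brightest probe was above the median spread. Of the dimmer tested probes, those of *Aebp2* (percentile 60.3), *Rbbp7* (61.3) and *Rbbp4* (70.1) and the third of *Ezh1* (83.6) were above it. The second *Ezh1* probe (32.0) was not. These percentiles were not matched for brightness. Per embryo, the 10 genes deviated from their own means by -0.05 to 0.08 on average.

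At 5 of the 15 tested member probes the 3 highest or 3 lowest values lay on the 3 arrays that detected the most probes. These arrays were replicate 1 of WT fathers (39530 probes), replicate 3 of HET fathers (38878) and replicate 4 of WT fathers (35486). The same held for 22.5% of the 33068 tested probes with a value on every array, beside 33.3% of the member probes. In the order in which the arrays are named here, the 3 highest values of *Jarid2* were 1.64, 2.04 and 1.89, against 1.00 to 1.50 in the other embryos. The dimmer *Aebp2* probe was highest there too (0.43, 0.25 and 0.16, against -0.38 to 0.15), as was the third *Ezh1* probe (-4.41, -3.53 and -4.80, against -5.25 to -4.92). Lowest there were the second *Rbbp7* probe (4.34, 4.15 and 4.39, against 4.70 to 4.91) and, by a narrow margin, the brightest *Ezh1* probe (2.61, 2.58 and 2.55, against 2.64 to 2.98). This order was noticed after the values were seen, and the part of array detection in it was not tested.

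**Figure D3:**
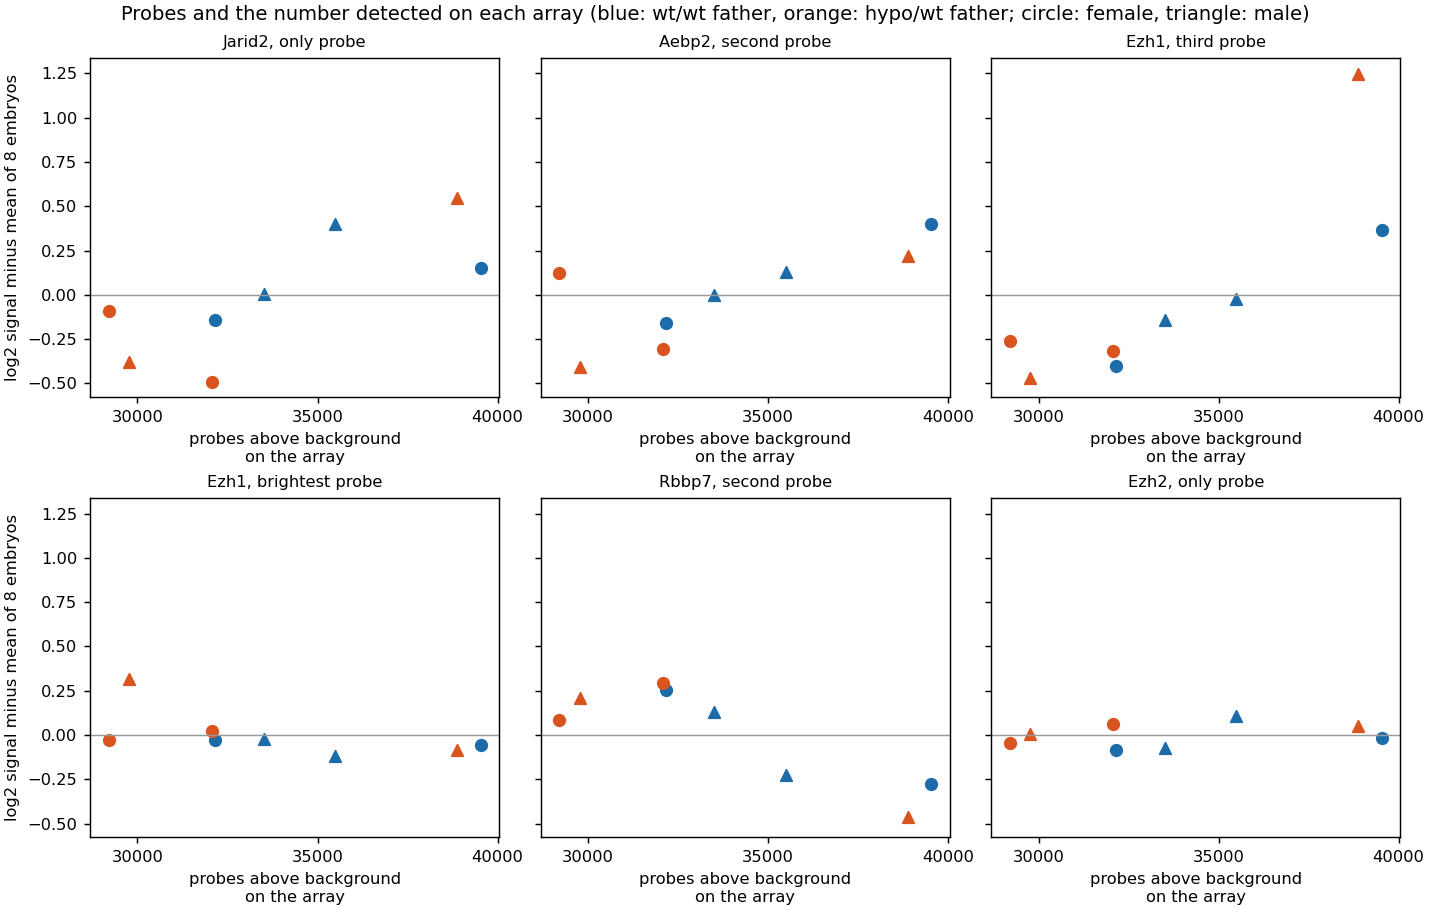
Log2 signal less the mean of the 8 embryos (vertical axes) against the number of probes well above background on the array (horizontal axes). Shown are the 5 member probes with their 3 highest or 3 lowest values on the 3 arrays that detected the most and, for comparison, *Ezh2*. Blue is the WT father group, orange the HET father group, circles are females and triangles males. The 3 arrays on the right of each panel, at 35486 to 39530 probes, carry the highest values of *Jarid2*, the dimmer *Aebp2* probe and the third *Ezh1* probe and the lowest of the brightest *Ezh1* and the second *Rbbp7* probe.

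Sex was compared next, in a fit that also held the father's genotype, since *Rbbp7* lies on the X chromosome. Of all tested probes 11 (0.0332%) were called between females and males, and 0 of the 15 PRC2 probes were among them. At an unadjusted p under 0.05 there were 0 PRC2 probes, beside 3.27% of all tested probes and 4.69% of the 767 X-linked ones. The sexes overlapped at all 15, whereas 2.58% of all tested probes had sexes that did not overlap. *Rbbp7* read 6.33, 6.39, 6.59 and 6.59 in females and 6.49, 6.50, 6.57 and 6.50 in males. The females lay both above and below the males, and the log2 difference, female less male, was -0.04 (-0.21 to 0.13; limma, unadjusted p = 0.596 and adjusted p = 1.00). It was -0.14 on the slide of the WT father group and 0.06 on that of the HET father group.

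For all 10 genes the 95% interval of the sex difference included 0. At the brightest probes 8 genes were lower and 2 higher in females, with a median of -0.04 against -0.02 over all tested probes. The largest difference was again that of *Jarid2*, -0.29 (-0.84 to 0.27), and with each embryo left out in turn it ran from -0.45 (without replicate 1 of HET fathers) to -0.08 (without replicate 3 of HET fathers). *Mtf2* followed with -0.08 (-0.24 to 0.07), and *Eed*, *Ezh1*, *Ezh2*, *Suz12*, *Rbbp4*, *Aebp2* and *Phf19* lay between -0.05 and 0.01. The father by sex interaction had 0 of the 15 probes under an unadjusted p of 0.05, beside 2.22% of all tested probes, and 0 after adjustment (0% of all tested probes) by limma.

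The rest of the pathway was read from a list of 32 genes, of which 31 were tested. By father's genotype 0 of the 31 were called (0% of all tested probes) and 0 had an unadjusted p under 0.05 by limma (4.35% of all tested probes), while 13 were higher and 18 lower, with a median of -0.01. Their differences ran from -0.85 for *Skida1* (limma, unadjusted p = 0.339) to 0.24 for *Eloa* (unadjusted p = 0.344). *Skida1* was dim and variable, at -4.79 ± 0.88 with WT fathers and -5.64 ± 1.64 with HET fathers (SD, n = 4 each). The number under 0.05 rose to 4 without replicate 3 of HET fathers, to 2 with normexp, with array weights or without both arrays that detected the most probes, and was 0 or 1 under each other alternative run. In the complex that reads H3K27me3 and ubiquitylates histone H2A (PRC1), the 11 catalytic, PCGF and related genes lay between -0.14 and 0.11. The 7 tested CBX and PHC genes, which bind the mark and cluster PRC1, lay between -0.23 and 0.20. The H3K27 demethylase genes *Kdm6a* (-0.11) and *Kdm6b* (0.11) had differences of opposite sign, each within its error, and the H3K27 acetyltransferase genes gave 0.04 for *Crebbp* and -0.16 for *Ep300*.

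By sex 0 of the 31 were called (0.0332% of all tested probes), and 2 X-linked genes had an unadjusted p under 0.05, 1 higher in females (1.96% of all tested probes) and 1 lower (1.31%). *Kdm6a*, a demethylase gene known to escape X inactivation, was at -0.60 ± 0.21 in females and -1.01 ± 0.24 in males (SD, n = 4 each). The log2 difference of *Kdm6a* was 0.41 (limma, unadjusted p = 0.0382 and adjusted p = 1.00). *Ezhip*, which encodes an inhibitor of PRC2, was at -3.01 ± 0.79 in females and -2.09 ± 0.46 in males (SD, n = 4 each), a log2 difference of -0.92 (unadjusted p = 0.0284 and adjusted p = 1.00 from limma). The sexes overlapped for both genes.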

How the data were processed

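RNA of 8 embryos was measured on one-colour Agilent 8x60K arrays. The authors extracted the spots with Agilent Feature Extraction 11.0.1.1, per the submitters' processing notes, and the software had subtracted the background and removed spatial trends from each deposited intensity, with no scaling across arrays. The methods name a percentile shift and no test. The deposited table of the whole series, also of intensity, left 0 columns of sample values unused and served as an alternative.

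Here each array's 75th percentile was subtracted from its log2 intensities, without control and outlier spots, and the 59305 spots were averaged to 55681 probes. Probes well above background on at least 4 of 8 arrays and above the lowest 20% by mean were tested (33093). Groups were compared with limma 3.58.1 (R 4.3.3, with data.table in version 1.17.8) over all of them, with Benjamini-Hochberg adjustment. Calls needed an adjusted p under 0.01 and at least a 2-fold change. Intervals are at 95%. Sex was fitted with father's genotype as a covariate. A gene was represented by its brightest tested probe. Of 28685 probes with a RefSeq accession, 27235 were named through GRCm38.p6, and the array's own design is on mm9. Figures used matplotlib 3.10.9 in Python 3.11.15, and promoter windows pandas 2.3.3 and numpy 2.4.6. The fits were tested on simulated data.

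The 10 members, the pathway and marker lists and the rules for naming genes (all members, and pathway genes at an unadjusted p under 0.05) were chosen with earlier results of these data known. *Skida1*, *Eloa*, *Kdm6b*, *Crebbp* and *Ep300* were named outside that rule. The alternatives were normexp (offset 50) with quantile normalization, other shifts, filters, moderation and weights, blocks by embryo code or replicate number, subsets by sex or slide, and each embryo left out, for the members and for the pathway genes by father. The number of arrays limits the precision.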

Additional observations from a re-analysis of the deposited data

Results flagged for a closer look

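In 2 of 30 groups of 4 embryos, a member probe had 1 embryo far from the other 3 by Dixon's ratio, which chance gives in about 1 of 20 groups. Both were replicate 3 of HET fathers, one of the 2 arrays with the most probes above background. *Mtf2* was at 3.26 there, with a gap of 0.844 of the range of the group. The third *Ezh1* probe was at -3.53, with a gap of 0.877 of the range, and this probe was not above background in replicates 1 and 4 of HET fathers.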

How the results depend on the processing

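No PRC2 probe was called under any of the alternatives run, and the smallest adjusted p over them was 0.420 by father, 0.811 by sex and 0.283 for the interaction. With an unadjusted p under 0.05 as the threshold 1 probe passed by father, and over the alternatives between 0 and 4 did. Of the 250 alternative values per comparison 25 changed sign by father and 30 by sex, none past the threshold. Of the 31 other pathway genes 0 were called by father under any alternative run, and 0 to 4 had an unadjusted p under 0.05.

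By father, *Aebp2*, *Mtf2* and *Rbbp4* turned to -0.095, -0.087 and -0.084 with a median shift, which also turned *Ezh2* (-0.068) and *Suz12* (-0.061) and moved the median of all probes from -0.00 to -0.10. Normexp gave -0.023 for *Mtf2* and -0.0016 for *Rbbp4*, quantile normalization -0.0053 for *Aebp2* and -0.0060 for *Rbbp4*, and array weights -0.029 for *Aebp2* and -0.014 for *Mtf2*. The mean over the probes of a gene gave -0.088 for *Aebp2* and -0.23 for *Rbbp4*. Without both arrays with the most detected probes *Aebp2* was -0.037, *Mtf2* -0.043 and *Rbbp4* -0.0060. Within males *Aebp2* and *Mtf2* were -0.013, *Rbbp4* -0.019 and *Suz12* -0.028. With each embryo left out, *Aebp2* ran from -0.016 to 0.030, *Mtf2* from -0.018 to 0.049 and *Rbbp4* from -0.0053 to 0.054.

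By sex, the median shift moved the median of all probes from -0.02 to 0.13 and turned *Aebp2* (0.11), *Eed* (0.10), *Ezh1* (0.10), *Ezh2* (0.10), *Mtf2* (0.062), *Rbbp4* (0.14) and *Rbbp7* (0.11). Array weights gave 0.023 for *Rbbp4* and -0.031 for *Suz12*, and the code as a random block (estimated correlation 0.680) -0.043 for *Suz12*. The mean over probes gave 0.11 for *Rbbp4* and 0.068 for *Rbbp7*. Without both arrays *Aebp2* was 0.0093, *Rbbp4* 0.034 and *Suz12* -0.0094. On the WT father slide *Ezh1* was 0.029, *Suz12* -0.059 and the second *Rbbp4* probe -0.065. On the HET father slide *Phf19* was -0.016, *Rbbp4* 0.035 and *Rbbp7* 0.057. With each embryo left out, *Ezh1* ran from -0.11 to 0.050, *Phf19* from -0.021 to 0.039, *Rbbp4* from -0.046 to 0.026 and *Suz12* from -0.0097 to 0.051. The cause of these turns was not tested.

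Replicate numbers do not pair these embryos: same-numbered embryos correlated at -0.55 to -0.05, and 0 of 4 correlated best with their own number. With the replicate number as a block 0 probes were called, and the second *Rbbp4* probe had an unadjusted p of 0.0388. With embryos of a shared code as a random block 0 probes were called and 0 had an unadjusted p under 0.05, that *Rbbp4* probe being at 0.0610. The block by replicate number could not be fitted in the interaction, where leaving out an embryo also left groups of 1.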
